A study of Mus musculus with 26 samples.

Results

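The KAP1-SETDB1 pathway silences retrotransposons and keeps imprinted control regions repressed. It was read in mouse 8-cell blastomeres through 10 genes, taken by name: Zfp57 and Zfp445, which encode DNA-binding KRAB zinc finger proteins, Trim28 (KAP1, the corepressor they recruit), Sumo2 (a modifier that TRIM28 attaches to itself), Setdb1 (the H3K9 methyltransferase drawn in by sumoylated TRIM28), Cbx1, Cbx3 and Cbx5 (HP1 proteins that read H3K9 methylation), Morc3 (a MORC ATPase) and Daxx (an H3.3 chaperone). The gene table held 55487 gene IDs, and all 10 members were found in it. In the embryo, this machinery carries DNA methylation imprints through the wave of demethylation that follows fertilisation, with ZFP57 binding the methylated allele of imprinted control regions and TRIM28 and SETDB1 keeping it marked. SETDB1 places H3K9 trimethylation, HP1 proteins bind it, and MORC3 and DAXX act in silencing of endogenous retroviruses together with H3.3.

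The measurements came from scRR-seq, which reads total RNA and replicated DNA from the same single cell. Blastomeres were separated by hand from 2 embryos of C57BL/6 mice made by in vitro fertilisation, and the labels name no transgene or treatment for either. The tables used here held 9 of the 13 labelled cells: cells 1, 6 and 7 of embryo 1, and cells 2, 3, 5, 6, 7 and 8 of embryo 2. Each embryo is 1 biological replicate and cells of an embryo share it, so differences are given beside the spread between cells, with no test between groups. The headers of all 9 RNA columns name the same embryo and cell, so these columns were assigned to cells by the number that closes each header alone.

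Several facts of the whole series touch every comparison. The replicated share of the genome ran from 0.00385 to 3.54% of scored bins in embryo 1, whose cells the study classed as G1 or G2/M, and from 62.4 to 80.5% in embryo 2, classed as S phase. Xist stood at 140 to 181 TPM in embryo 1 and at 0.9 TPM or less in embryo 2, where the Y-linked gene Eif2s3y was expressed. Embryo, replication stage and sex therefore cannot be told apart. The number that closes each title splits the cells a second way: the study's sample list gives protocol scRR3 (the larger lysis volume) for numbers 11 to 17, which are embryo 1 cell 1 and embryo 2 cells 2 and 3, and protocol scRR1 for numbers 20 to 25, which are the other 6 cells. RNA levels are in TPM, the share of a cell's transcripts after scaling by transcript length. Genes with over 1 TPM numbered 12411 to 13319 in the scRR3 cells and 11058 to 11960 in the scRR1 cells. For embryos the study also reported that scRR1 coverage leans towards the 3′ end of transcripts, which touches every split of a gene's TPM over its transcripts. Mitochondrial genes took 4.28 to 6.77% of TPM in embryo 1 and 5.98 to 18.2% in embryo 2. All 8 preimplantation markers were above 1 TPM in every cell, with Dppa3 and Klf5 the highest. Of these, 1 (Pou5f1) was higher in all scRR3 cells (227 to 346 against 117 to 226 TPM), with almost no gap between the groups. The same held for 8.85% of the genes whose mean log2(TPM + 1) was at least 3. Of the cumulus and granulosa markers, 4 of 8 were listed at 0 throughout and their summed TPM (21.3 to 35.4 in embryo 1, 9.93 to 30.2 in embryo 2, nearly all Amhr2) overlapped between embryos. The 6 blood and fibroblast markers summed to at most 1.95 TPM and the 4 sperm markers to at most 1.62 TPM. TPM does not keep the number of reads behind a value.

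Members spanned a wide range of levels. Sumo2 was the highest at 1400 ± 497 TPM (mean ± SD, n = 9 cells), which placed it 128th of the 6860 genes whose mean log2(TPM + 1) was at least 3. Trim28 followed at 883 ± 273 TPM and Cbx3 at 326 ± 137 TPM. Morc3 lay next at 63.8 ± 24.7 TPM, and then came 3 genes within a few TPM of each other: Cbx5 at 29.8 ± 7.66, Daxx at 28.1 ± 20.0 and Cbx1 at 26.1 ± 18.5 TPM. Zfp445 (20.9 ± 11.8 TPM), Setdb1 (15 ± 8.69 TPM) and Zfp57 (11 ± 9.17 TPM) were the lowest. From Morc3 upward, each mean log2(TPM + 1) lay above the next gene's by more than the larger SD of the pair; from Cbx5 down, no neighbours in the order differed beyond their spread. The corepressor exceeded the methyltransferase in every cell, with a Trim28 to Setdb1 TPM ratio from 19.9 to 312 and a median of 68.3. Counting only the TPM of protein-coding transcripts, that ratio was 3.88 to 48.7 with a median of 18. The order of the medians changed as well on coding TPM. The median was 161 TPM for Trim28, under the 392 TPM of Cbx3, and 1.26 TPM for Cbx1, the lowest of the members. Coding Cbx3 exceeded coding Trim28 in 6 of 9 cells, all of them scRR1 cells. In every scRR3 cell coding Trim28 was the higher, with almost no gap where the values were closest.

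**Figure D1:**
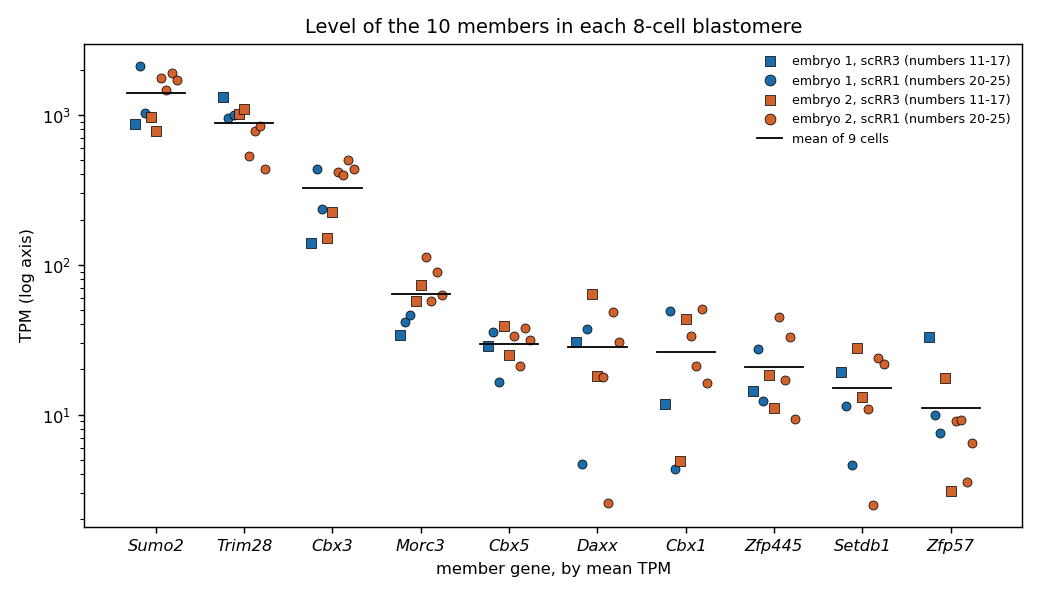
TPM of each member (log axis) in 9 blastomeres, one point per cell, coloured by embryo and shaped by protocol, with the mean as a line. Sumo2, Trim28 and Cbx3 lie above all cells of the other 7 genes, and the Morc3 points of embryo 2 all lie above those of embryo 1.

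Spread between cells also set members apart. The SD of log2(TPM + 1) over the 9 cells was 1.40 for Daxx, 1.26 for Cbx1 and 1.02 for Setdb1, against 0.40 for Cbx5 and 0.51 for Trim28. Among genes within 0.5 log2 units of the same level, 93.0% had a smaller SD than Daxx and 90.3% a smaller SD than Cbx1, while 8.39% had a smaller SD than Cbx5. Daxx ran from 2.59 TPM in embryo 2 cell 6 to 64.0 TPM in embryo 2 cell 2. The low cell of Daxx was the low cell of Setdb1 too, at 2.5 TPM, and over the 9 cells Setdb1 and Daxx had r = 0.68. Embryo 2 cell 6 also had the fewest genes over 1 TPM (11058), and r without this cell was not computed. The 45 pairs of members ran from r = -0.69 (Trim28 and Cbx3) to r = 0.90 (Sumo2 and Cbx3). These correlations come from cells that share embryo and protocol, and the median over the pairs was 0.10, beside 0.06 over all pairs of genes at this level.

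The zinc finger genes differed in pattern. Zfp57, whose product binds the methylated allele of imprinted control regions, measured 32.7, 9.95 and 7.55 TPM in embryo 1 (cells 1, 6 and 7, the order used throughout) and lay between 3.07 and 17.6 TPM (median 7.82) in embryo 2. The cells overlapped between embryos and between protocols, in the second case through the 3.07 TPM of embryo 2 cell 3 alone. Zfp57 lies on chromosome 17, 37001163 to 37010635, plus strand, and Zfp445 on chromosome 9, 122844529 to 122866006, minus strand (GRCm38, GENCODE M21). Zfp445, a further zinc finger protein that protects imprints, measured 14.5, 27.3 and 12.3 TPM in embryo 1 and varied between 9.33 and 44.6 TPM (median 17.7) in embryo 2. Zfp445 exceeded Zfp57 in 8 of 9 cells, the exception being embryo 1 cell 1, where the ratio of Zfp445 to Zfp57 TPM was 0.443. Almost all Zfp445 TPM (90.6% over the 9 cells) was given to the coding transcript Zfp445-206. Zfp57 TPM was split over several coding transcripts with different starts, none present in more than 4 cells among the 4 with the most TPM, and the reads behind them are unknown.

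Of 12 other KRAB zinc finger genes, 5 were at the level used for comparison. Zfp932 had the highest mean TPM of that list (222 ± 91.9 TPM) and was lower in all scRR3 cells (93.5 to 156 TPM) than in all scRR1 cells (203 to 342 TPM), a direction without overlap in 2.33% of the compared genes. Gm15446 came next and varied from 7.79 to 430 TPM. Among 16 imprinted genes at control regions that ZFP57 binds, only 2 were at the compared level and 3 were listed at 0 in all cells. Snrpn, a paternally expressed splicing gene, averaged 79.1 ± 28.4 TPM, and Mcts2, a paternally expressed retrogene, 20.7 ± 11.5 TPM. For neither were the embryos apart.

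Trim28, the corepressor of the KRAB zinc finger proteins, measured 1309, 954 and 1004 TPM in embryo 1. Embryo 2 values lay between 433 and 1086 TPM (median 812), with the scRR3 cells 2 and 3 at 1011 and 1086 TPM and the other 4 cells at 433 to 843 TPM. The scRR3 cells thus lay above all scRR1 cells (1011 to 1309 against 433 to 1004 TPM), as in 8.85% of the compared genes. The gap at the edge was small: embryo 1 cell 7, at 1004 TPM, sat just under embryo 2 cell 2, at 1011 TPM. Mean log2(TPM + 1) was 0.64 higher, beside a pooled SD of 0.43, by 0.42 within embryo 1 and by 0.75 within embryo 2. The cells overlapped once TPM was rescaled over protein-coding nuclear genes (0.58) or each cell was centred on its median gene (0.41).

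Trim28 lies on chromosome 7, from 12999114 to 13031035 on the plus strand (GRCm38, GENCODE M21). Its RefSeq promoter covers 250 bases before to 50 bases after 13024152, which is the start of the coding transcript Trim28-201 and not the outermost start of the gene. It is shown with the promoters of the other members whose groups did not overlap (Sumo2, Cbx3, Morc3) and both starts of Cbx5, over which its transcripts divide. The sequences are RefSeq promoters on GRCm38.p6, written 5′ to 3′ on the gene's strand, with CG dinucleotides (the letters CG, the same on both strands) in capitals:
Trim28, chr7:13023902-13024201, plus strand: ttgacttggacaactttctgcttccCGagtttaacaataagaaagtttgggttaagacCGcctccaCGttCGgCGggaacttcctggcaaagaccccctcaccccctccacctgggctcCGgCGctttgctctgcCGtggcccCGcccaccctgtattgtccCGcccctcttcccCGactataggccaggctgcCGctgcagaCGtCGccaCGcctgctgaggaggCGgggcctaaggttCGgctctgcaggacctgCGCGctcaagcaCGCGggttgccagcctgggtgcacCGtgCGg
Sumo2, chr11:115536181-115536480, minus strand: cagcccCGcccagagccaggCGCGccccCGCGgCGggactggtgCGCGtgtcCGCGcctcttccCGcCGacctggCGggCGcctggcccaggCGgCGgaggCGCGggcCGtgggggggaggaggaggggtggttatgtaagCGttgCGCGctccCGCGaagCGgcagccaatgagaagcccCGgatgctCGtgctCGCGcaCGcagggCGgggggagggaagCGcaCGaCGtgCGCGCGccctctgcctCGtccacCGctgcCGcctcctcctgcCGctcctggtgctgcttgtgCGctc
Cbx3, chr6:51470366-51470665, plus strand: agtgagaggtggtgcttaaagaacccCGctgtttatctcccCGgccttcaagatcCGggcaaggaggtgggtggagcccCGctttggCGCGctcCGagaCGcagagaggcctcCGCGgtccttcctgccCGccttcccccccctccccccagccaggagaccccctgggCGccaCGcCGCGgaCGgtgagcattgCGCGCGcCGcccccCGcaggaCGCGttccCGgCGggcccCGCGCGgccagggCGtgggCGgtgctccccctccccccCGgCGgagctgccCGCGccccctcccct
Morc3, chr16:93831871-93832170, plus strand: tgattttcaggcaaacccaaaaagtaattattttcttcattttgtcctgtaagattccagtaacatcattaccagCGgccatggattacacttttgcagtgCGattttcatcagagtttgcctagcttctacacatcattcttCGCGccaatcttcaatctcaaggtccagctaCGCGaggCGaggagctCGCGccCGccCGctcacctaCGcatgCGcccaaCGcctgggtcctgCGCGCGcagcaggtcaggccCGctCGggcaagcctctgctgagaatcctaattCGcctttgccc
Cbx5 upstream start, chr15:103239803-103240102, minus strand: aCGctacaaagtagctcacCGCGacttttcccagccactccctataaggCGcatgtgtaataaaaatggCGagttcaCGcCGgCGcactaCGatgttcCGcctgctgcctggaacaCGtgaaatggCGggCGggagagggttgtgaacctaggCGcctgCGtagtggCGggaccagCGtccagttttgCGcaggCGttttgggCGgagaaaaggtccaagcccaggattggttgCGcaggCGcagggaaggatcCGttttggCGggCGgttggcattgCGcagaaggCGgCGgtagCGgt
Cbx5 downstream start, chr15:103215303-103215602, minus strand: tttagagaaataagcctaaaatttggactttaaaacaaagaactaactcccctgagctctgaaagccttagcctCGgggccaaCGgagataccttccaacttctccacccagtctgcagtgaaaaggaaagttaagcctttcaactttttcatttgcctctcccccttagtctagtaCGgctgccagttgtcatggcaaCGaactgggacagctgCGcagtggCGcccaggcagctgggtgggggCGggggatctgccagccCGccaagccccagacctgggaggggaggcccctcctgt

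The table held 16 promoters for the 10 members, with 4 to 42 CG dinucleotides in 300 bases. Sumo2 had 42, a number reached by 3.03% of all 32851 promoters in the table, and Cbx3 had 34 (7.73% of promoters reach it). The Trim28 promoter had 23 (21.5%) and Morc3 20 (26.5%), and the median promoter had 7. The 3 Zfp57 promoters (4, 6 and 9) and the downstream start of Cbx5 (8) had the fewest among the members.

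Most Trim28 TPM was not assigned to the coding transcript. Trim28-201, the one protein-coding transcript (3245 bases), took 8.94 to 27.0% of the gene's TPM, or 84.6 to 337 TPM. Trim28-203, a retained-intron transcript of 565 bases at the 3′ end of the gene, took 45.5% over the 9 cells and Trim28-206, a retained-intron transcript of 562 bases, 27.8%. TPM is scaled per length, so a short transcript raises it more per read. Trim28-201 stood at 217 to 337 TPM in the scRR3 cells and at 84.6 to 163 TPM in the scRR1 cells, without overlap. The same direction without overlap held for Trim28-206 and for Trim28-210 (47.9 to 106 against 0 to 37.6 TPM). Of the compared genes, 8.85% were apart in this direction, and the share over all transcripts was not computed. The TPM of Trim28-203 overlapped between the protocols.

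The 3 genes most like Trim28 over the 9 cells, by Pearson r of log2(TPM + 1), were Oasl2 (r = 0.97), Foxi3 (r = 0.96) and Map4 (r = 0.95). They were the top of 6859 genes ranked on 9 points that share embryo and protocol. The list of TRIM28 relatives and subunits of the NuRD deacetylase complex, which TRIM28 recruits, held 12 compared genes of 15. Of these, 4 (Mta3, Gatad2a, Mta2 and Gatad2b) were higher in all scRR3 cells, a direction without overlap in 8.85% of the compared genes, for example Mta3 at 261 to 332 against 144 to 200 TPM and Mta2 at 52.1 to 80.0 against 23.3 to 38.7 TPM. Rbbp7, a histone-binding subunit, had the highest mean of the list (299 ± 91.2 TPM) and overlapped between protocols.

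Sumo2 moved with the protocol in the other direction. The embryo 1 cells measured 872, 2119 and 1025 TPM. Embryo 2 ran from 780 to 1891 TPM, with the scRR3 cells 2 and 3 at 964 and 780 TPM and the other cells at 1470 TPM or more. All scRR3 cells therefore lay below all scRR1 cells, as in 2.33% of the compared genes, with a difference of -0.90 and a pooled SD of 0.32. It was -0.76 within embryo 1 and -0.97 within embryo 2. Sumo2 lies on chromosome 11, 115523102 to 115536276, minus strand. Its 3 main coding transcripts share a 3′ end and differ at the start. Sumo2-207, from the most upstream start, took 33.3 to 51.6% of Sumo2 TPM in the scRR3 cells and 0 to 7.86% in the scRR1 cells. Sumo2-205, whose start is nearest the 3′ end, took 27.4 to 46.0% in the scRR3 cells and 49.3 to 78.6% in the scRR1 cells. The study reported a 3′ bias of scRR1 coverage in these embryos. Its part in the Sumo2 shares was not tested. The bars for Sumo2 in the plot of transcript shares change at the protocol boundary, and both embryos have cells on each side of it.

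**Figure D2:**
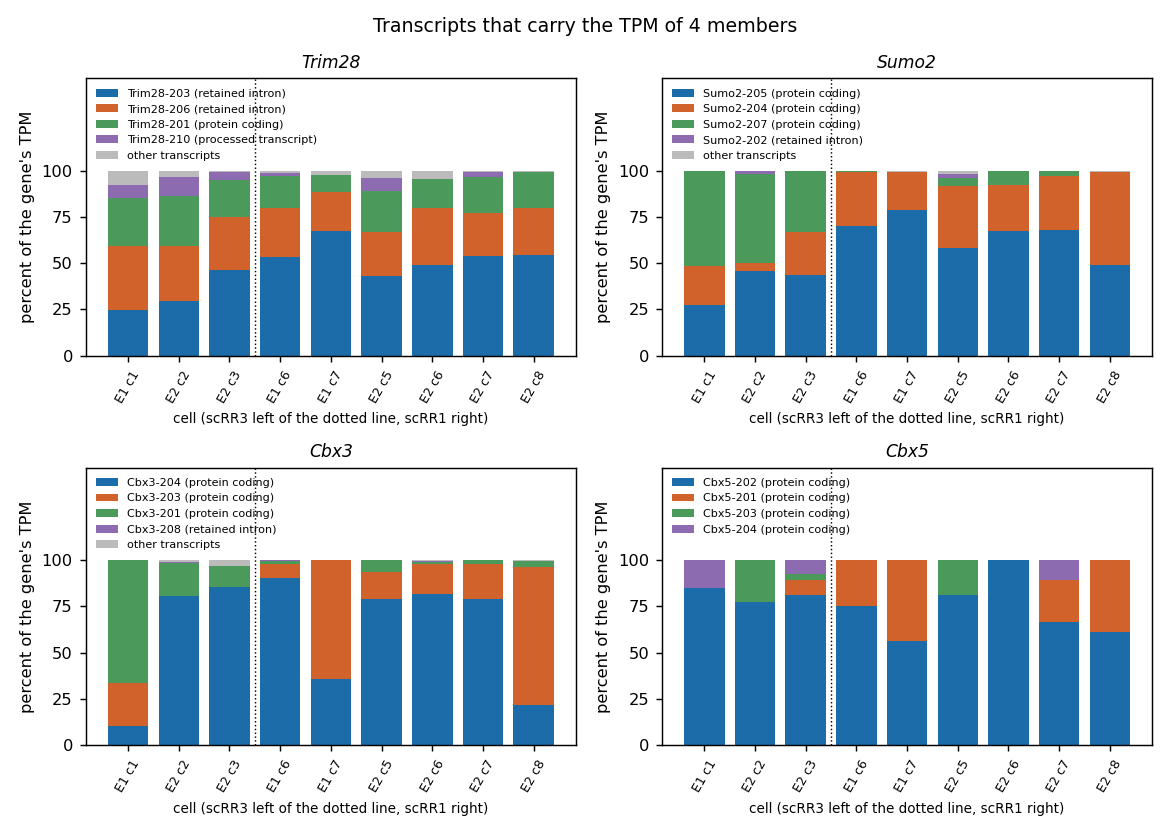
Percent of each gene's TPM in its 4 leading transcripts and the rest, 1 bar per cell, scRR3 cells left and scRR1 cells right of the dotted line. Trim28-203 and Trim28-206 take most of the Trim28 bars, and Sumo2-207 is large in the scRR3 cells.

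Sumo2 exceeded Trim28 in every scRR1 cell (1.02 to 3.94 times) and lay below it in every scRR3 cell (0.666 to 0.953 times). In the list of 15 other SUMO pathway genes, 12 were compared. Senp1, a SUMO protease, was higher in all embryo 2 cells (12.6 to 22.2 against 7.25 to 12 TPM), as were 1.14% of the compared genes.

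Setdb1, the H3K9 methyltransferase at the centre of the pathway, was low and variable. Its values were 19.2, 11.4 and 4.62 TPM in embryo 1, and embryo 2 spanned 2.5 to 27.7 TPM (median 17.5). The groups overlapped in both splits. Setdb1 lies on chromosome 3, 95323525 to 95357202, minus strand, and its last bases overlap Cers2 on the opposite strand, a gene at 60.3 to 130 TPM, so reads there cannot be told apart without strand. Of its TPM, 45.0 to 100% was in coding transcripts. Of the 11 cofactors and other H3K9 methyltransferases, 9 were compared. Ehmt2 (90.9 ± 42.7 TPM) and Resf1 (75.9 ± 37.0 TPM), a SETDB1 partner, had the highest means, and Wiz, a partner of EHMT1 and EHMT2, was higher in all scRR3 cells (35.6 to 38.3 against 15.3 to 31.0 TPM), as were 8.85% of the compared genes. In the HUSH complex, which guides SETDB1 to transposons, 5 of 6 genes were compared and none separated either split; Pphln1 (89.7 ± 30.5 TPM) and Mphosph8 (31.6 ± 12.6 TPM) were highest.

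Among the HP1 genes, Cbx3 (HP1 gamma) dominated. It took 84.3 ± 5.94% (SD, n = 9 cells) of the summed HP1 TPM, beside 9.15 ± 5.17% for Cbx5 (HP1 alpha) and 6.52 ± 4.11% for Cbx1 (HP1 beta). Cbx3 measured 139, 437 and 235 TPM in embryo 1 and varied between 151 and 499 TPM (median 407) in embryo 2. All scRR3 cells (139 to 225 TPM) lay below all scRR1 cells (235 to 499 TPM), as in 2.33% of the compared genes. The gap at the edge was small: embryo 2 cell 3 was at 225 TPM and embryo 1 cell 7 at 235 TPM. The difference was -1.22 with a pooled SD of 0.37, and it was -1.20 within embryo 1 and -1.23 within embryo 2. The Cbx3 share of HP1 TPM followed it, at 77.2 ± 0.551% in the scRR3 cells and 87.9 ± 3.3% in the scRR1 cells. Cbx3 (chromosome 6, 51470360 to 51483704, plus strand) has 8 annotated pseudogenes in the table. Cbx3-ps6 was above 1 TPM, at 23.7 TPM in embryo 2 cell 3 and 0 in the other 8 cells, which is 10.6% of Cbx3 in that cell.

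**Figure D3:**
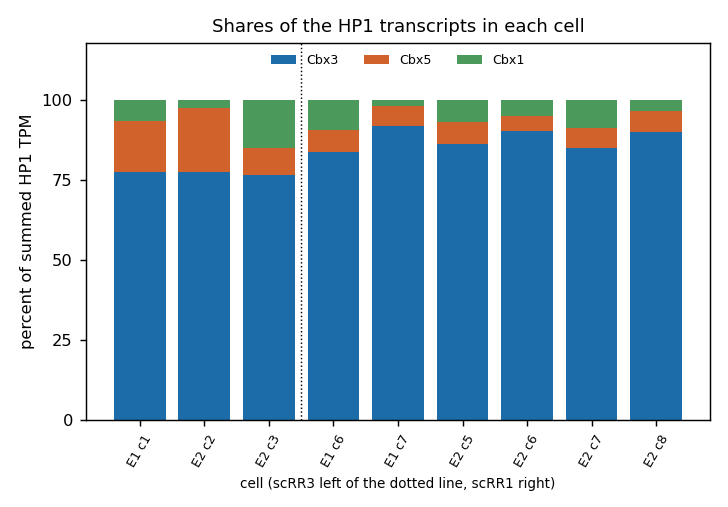
Percent of the summed TPM of the 3 HP1 genes taken by each gene, one bar per cell in the order scRR3, then scRR1. The Cbx3 share is 76.6 to 77.6% in the 3 scRR3 cells and 83.8 to 91.9% in the 6 scRR1 cells.

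Cbx5 had the smallest SD of the members. Its embryo 1 cells measured 28.7, 35.8 and 16.4 TPM, and embryo 2 spanned 21.1 to 38.8 TPM (median 32.4). Cbx5 lies on chromosome 15, 103191544 to 103239816, minus strand, and Cbx1 on chromosome 11, 96789127 to 96808640, plus strand. Transcripts that start near the upstream promoter printed above, which has 29 CG dinucleotides, took 56.4 to 100% of Cbx5 TPM, and the downstream start with 8 took 0 to 43.6%. Cbx1 varied most of the HP1 genes, with 11.8, 48.8 and 4.32 TPM in embryo 1 and a span of 4.88 to 50.6 TPM (median 27.2) in embryo 2. Of its TPM, 94.3% was assigned to Cbx1-204, a transcript annotated for nonsense-mediated decay, and at most 5.63 TPM to coding transcripts. The processed pseudogene Gm11517 lies within the Cbx1 gene on the opposite strand at 828 to 1721 TPM, far above Cbx1 itself. It was named after its values were seen. Whether any of its reads enter the Cbx1 level was not checked. Lbr, an HP1 partner in the nuclear envelope, averaged 119 ± 32.0 TPM, and Chaf1b, a chromatin assembly subunit, 29.2 ± 18.6 TPM, and none of the 4 compared genes of their list of 6 separated a split.

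Morc3, a MORC family ATPase of nuclear bodies, was the member that separated the embryos. The embryo 1 cells measured 34.1, 41.2 and 45.9 TPM, whereas embryo 2 ran from 57.5 to 112 TPM with a median of 68.2. The lowest cell of embryo 2 thus lay above the highest of embryo 1, as in 1.14% of the compared genes, and mean log2(TPM + 1) was 0.85 higher (pooled SD 0.34), by 0.91 among the scRR3 cells and by 0.82 among the scRR1 cells. With each cell centred on its median gene the difference was 0.90, but the cells of the embryos overlapped, and centred within classes of GC content it was 0.70, again with overlap. Sex and replication stage cannot be told apart from the embryo here. Coding transcripts took 78.8 to 100% of Morc3 TPM, with Morc3-201 at 81.5% of TPM over the 9 cells. Morc3 lies on chromosome 16, 93832121 to 93876073, plus strand. Of the 2 other MORC genes, Morc1 stood at 17.6 ± 8.09 TPM and Morc4 at 0.301 ± 0.451 TPM.

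Daxx, which deposits H3.3 at silent chromatin, measured 30.3, 4.66 and 37.1 TPM in embryo 1, and embryo 2 spanned 2.59 to 64.0 TPM (median 24.2). The cells overlapped in both splits. Daxx lies on chromosome 17, 33909414 to 33915590, plus strand. Its coding transcripts took 29.0 to 100% of its TPM, and Daxx-205, a short processed transcript, 50% over the 9 cells. The H3.3 genes themselves were abundant. H3f3a averaged 750 ± 262 TPM and was higher in all scRR3 cells (806 to 1307 against 410 to 760 TPM), while H3f3b averaged 304 ± 90.4 TPM and overlapped. All 6 genes of the H3.3 list were compared and H3f3a was the 1 that separated a split, in the direction taken by 8.85% of the compared genes. Of 10 genes listed as H3K9 demethylases, 6 were compared and none separated either split, with Kdm1a (54.1 ± 26.4 TPM) and Kdm3a (36.1 ± 13.5 TPM) the highest.

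For the embryo comparison, 1 of 10 members (Morc3) was higher in every embryo 2 cell, where 1.14% of the 6860 genes were, and 0 of 10 were lower, where 2.57% of genes were. Members were, at the median, 0.24 higher in embryo 2, against -0.04 over all genes, and 8 of 10 had a positive difference. Without embryo 1 cell 7 the median was -0.06 and 3 of 10 (Cbx3, Morc3 and Daxx) were positive. The median over all 9 cells lies under the pooled SD of the members' median between cells (0.41). Zfp57 (-0.87, pooled SD 0.89) and Trim28 (-0.54, pooled SD 0.46) were the 2 members with a negative difference. Within each protocol Trim28 was lower in every embryo 2 cell than in the embryo 1 cells, by 0.32 among 3 scRR3 cells and by 0.65 among 6 scRR1 cells. Beside that, 37.4% of the compared genes were lower without overlap among the scRR3 cells, 9.66% among the scRR1 cells and 5.09% in both. Over all 9 cells Trim28 overlapped between embryos.

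**Figure D4:**
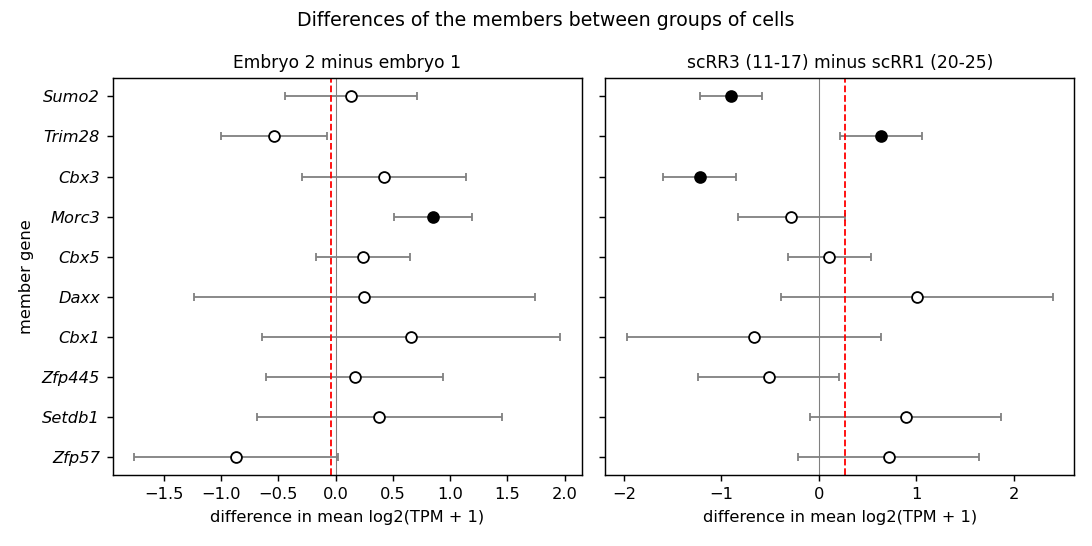
Difference in mean log2(TPM + 1) for each member, embryo 2 minus embryo 1 (left) and scRR3 minus scRR1 cells (right), with pooled SD between cells as bars and the median of all 6860 genes as a dashed line. Filled points mark members whose groups do not overlap: Morc3 on the left, and Sumo2, Trim28 and Cbx3 on the right.

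For the protocol comparison, 1 of 10 members (Trim28) was higher in every scRR3 cell, where 8.85% of genes were, and 2 of 10 (Sumo2 and Cbx3) were lower, where 2.33% were. Over the 83 genes of the pathway lists, 60 were compared: 7 were higher in all scRR3 cells (11.7%), 2 lower (3.33%), 1 higher in embryo 2 (1.67%) and 0 lower. The median of all genes was 0.27 higher in the scRR3 cells, so Trim28 stood 0.37 above the typical gene and Sumo2 and Cbx3 stood 1.17 and 1.49 below it. This difference varied with the GC content of the transcript. Over 5 equal classes of the 6844 genes with a sequence, the median difference rose from -0.25 in the lowest class (27.5 to 43.8% GC) to 0.57 in the highest (55.3 to 73.7% GC). Over 5 classes of transcript length, it ran from 0.20 to 0.32.

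The 3 members that separated the protocols lay in the lowest and highest of these classes. Zfp445, Cbx5 and Morc3 were in the lowest class too, with differences of -0.52, 0.11 and -0.28, and their cells overlapped between the protocols. The leading coding transcript of Cbx3 was 37.2% GC and that of Sumo2 40.5%, both in the lowest class, and that of Trim28 59.6%, in the highest. The Trim28 transcript held 19.7% of the gene's TPM over the 9 cells, and the GC content of its other transcripts was not used. Within the GC class of each of these 3 members, 55.4% of genes had a lower difference than Trim28, 16.7% than Sumo2 and 8.77% than Cbx3. With each cell centred on the median gene of each class, the difference of Trim28 fell to 0.09 and its cells overlapped, that of Sumo2 became -0.57 and that of Cbx3 -0.89, both still without overlap. The part of GC content in these differences was not tested.

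**Figure D5:**
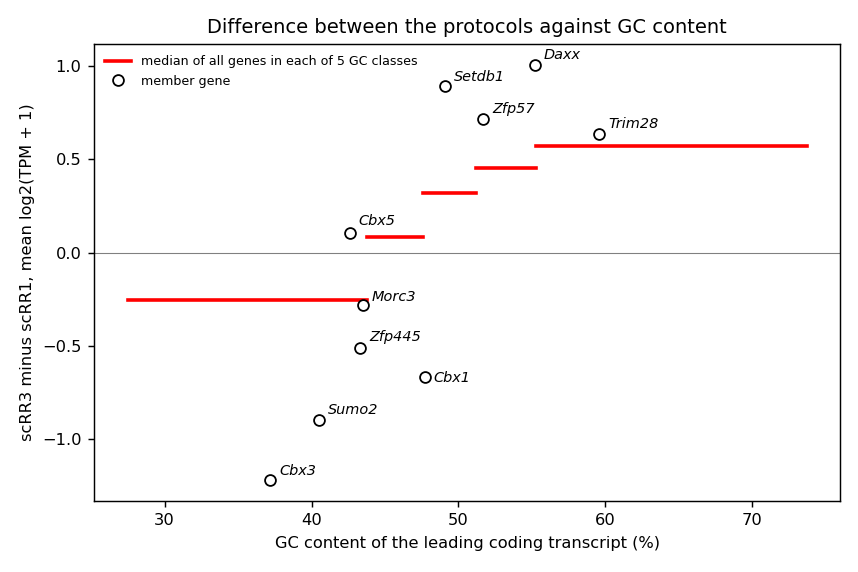
Difference of each member between scRR3 and scRR1 cells (mean log2(TPM + 1)) against the GC content of its leading coding transcript, with red lines at the median of all genes in each of 5 classes of GC content. Cbx3 (37.2% GC) and Sumo2 (40.5%) lie below the lines and Trim28 (59.6%) close to its line. The transcript that sets the GC content held 19.7% of the TPM of Trim28 and 3.41% of that of Cbx1.

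Replication state was read in 40 kb bins, scored as replicated or unreplicated. The table had no bins used here for chromosome 6, so Cbx3 has no state. In embryo 1 the bins of all 9 other members were scored unreplicated in every cell. A score read from coverage within a cell does not separate a genome that is wholly unreplicated from a genome that is wholly replicated. In embryo 2, 50 of the 54 member-cell pairs were replicated, 3 were unreplicated and 1 was mixed; over the 5886 compared genes with bins, 4.77% of gene-cell pairs were unreplicated. Zfp57, Trim28, Setdb1, Cbx1 and Daxx were replicated in all 6 cells, which is 5 of 9 members (55.6%), beside 74.4% of those compared genes.

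The unreplicated loci lay in different cells. Sumo2 was unreplicated in embryo 2 cell 5 (1757 TPM, above 4 of the 5 cells where it was replicated), Zfp445 in cell 6 (17.1 TPM, below 3 of 5) and Morc3 in cell 8 (62.7 TPM, below 3 of 5). Each value lay inside the range of the replicated cells, which was 780 to 1891 TPM for Sumo2, 9.33 to 44.6 TPM for Zfp445 and 57.5 to 112 TPM for Morc3. The Sumo2 range spans both protocols. Its replicated scRR3 cells 2 and 3 were at 964 and 780 TPM. The replicated cells 6, 7 and 8, of the same scRR1 protocol as cell 5, were at 1470, 1891 and 1705 TPM. Cbx5 had 1 of its 2 bins unreplicated in cell 6, at 21.1 TPM, its lowest value in embryo 2. Setdb1 (2.5 TPM) and Daxx (2.59 TPM), both replicated in cell 6, were at their lowest of embryo 2 there too. No other member was.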

How the data were processed

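The authors deposited 3 tables: gene and transcript TPM (RNA reads cut to a common number, aligned to mm10 with Hisat and quantified by RSEM on GENCODE M25) and a replication score per 40 kb bin from AneuFinder (1 replicated, -1 unreplicated, 0 no data). Per the labels, DNA reads were aligned by BWA 0.7.17-r1188. The headers of all 9 RNA columns name embryo 1 cell 7, which fits 1 of them by its title; they were matched to cells by the closing number, which fits 1 RNA title each. A further 14 columns in each table belong to no labelled sample and were not used, and 4 labelled cells were not analysed here. GENCODE M21 named 55141 of 55487 gene IDs and gave transcript types and positions on the same build. Differences are of mean log2(TPM + 1), pseudocount 1, over genes with a mean of at least 3. Groups were called apart where their cells did not overlap. No test between groups was run; Dixon's gap was used only to find a cell far from the others of embryo 2. TPM does not keep the reads behind a value, so no counting error is given. Members, lists and comparisons were chosen with earlier results of these data known. Named genes are the members, the 2 highest of each list, every list gene whose groups did not overlap, the 3 genes most like Trim28 and pseudogenes above 1 TPM. A few results that this rule would name are not reported here. Markers of 4 cell types were checked. The comparison of GC content and the centring within its 5 classes were added after seeing the data. The GC content is that of the coding transcript with the highest mean TPM, or of any transcript where none is coding. Scripts in Python were tested on simulated data.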

Additional observations from a re-analysis of the deposited data

Results flagged for a closer look

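The share of Cbx5 in the summed HP1 TPM was 19.9% in embryo 2 cell 2, far above the other 5 cells of that embryo. In this cell Cbx1 and Cbx3 were both at their lowest of embryo 2. Of 14 measures checked in the 6 cells of embryo 2, this was the 1 that stood apart by Dixon's gap. By chance alone about 1 in 20 measures would pass that cut-off, so 1 of 14 is not rare. The HP1 shares of a cell also sum to a fixed total, so these measures are not independent. Cell 2 is a scRR3 cell, and embryo 1 cell 1, another scRR3 cell, had 16%.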

How the results depend on the processing

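Of 380 differences of single members recomputed under the alternatives, 376 moved by less than the spread between cells and 4 by more. These were Zfp57 within the scRR3 cells (embryo 2 minus embryo 1, -1.95) and within embryo 1 (scRR3 minus scRR1, 1.80), and Trim28 and Sumo2 with cells centred within GC classes (0.09 and -0.57). That spread was wide for some members (pooled SD within embryos 1.49 for Daxx and 1.31 for Cbx1), so a change of sign could fall inside it. The embryo difference of Daxx went from 0.25 to -0.62 without embryo 1 cell 6. That of Cbx1 went from 0.66 to -0.09 without embryo 1 cell 7. The filter settings among the 380 leave the members' differences unchanged by design. Rescaling without mitochondrial genes and sums of transcripts called the same members. A pseudocount of 0.1 cannot change whether cells overlap. Both filters changed only the genes set beside the members, so they could not change a member's call. Centring on the median gene left 0 members higher in embryo 2 and 0 higher in the scRR3 cells. Rescaling over protein-coding nuclear genes left 0 higher in the scRR3 cells. Centring within GC classes left 0 higher and 1 (Trim28) lower in embryo 2, and Cbx5 in place of Trim28 higher in the scRR3 cells. Within the scRR3 cells, 2 members were higher (Cbx3, Morc3) and 2 lower (Zfp57, Trim28) in embryo 2, on 1 cell against 2, where 32.0 and 37.4% of the compared genes were, and within the scRR1 cells 1 was lower (Trim28), where 9.66% were. Within embryo 1, 3 members were higher in the scRR3 cell (Zfp57, Trim28, Setdb1) and 3 lower (Sumo2, Cbx3, Morc3), on 1 cell against 2, where 44.1 and 22.7% of genes were. Leaving out each cell in turn, the members higher in the scRR3 cells numbered 1 to 2 (2 without embryo 2 cell 3, when Zfp57 joined), those lower 2, those higher in embryo 2 1 and those lower 0. The median member difference between embryos ran from -0.06 (without embryo 1 cell 7) to 0.48 and that between protocols from -0.21 to 0.05. Centring on the median gene moved the median of all genes between protocols from 0.27 to 0.04 and the genes higher in the scRR3 cells from 8.85 to 4.26%, with 4.30% lower. The Cbx3 share of HP1 ran from 83.4 to 85.3%, and 4 rather than 3 member-cell pairs were unreplicated by the bin of the start. No paired analysis was possible because a cell number names a different cell in each embryo.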
